A study of Mus musculus with 6 samples.

Results

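The chromatin of 10 marker genes of the crypt stem cell (Lgr5, Olfm4, Ascl2, Smoc2, Lrig1, Prom1, Tnfrsf19, Msi1, Cdca7 and Aqp4) was examined by ATAC-seq, a method that reads open DNA from where a transposase can insert sequencing adaptors. Their regions were the rows of the table of MACS peaks in which the authors' gene name equalled one of these symbols exactly. This gave 44 peaks from 9 of the 10 genes, of 123510 peaks in all, 61914 of which carried one of 18004 gene names. No row used here carried the name Ascl2.

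The nuclei came from whole small intestinal crypts of C57BL/6 mice, which the study's methods give as males, and ages were not given in the sources used here. There were 3 wild-type (WT) libraries and 3 libraries from mice with Vil-Cre mediated KO of Smarcad1 (Smarcad1-KO), a chromatin remodeler of the SNF2 family. In these mice Cre is driven by the Villin promoter in the intestinal epithelium, where it removes floxed Smarcad1 exons, so cells of other lineages in a crypt isolate keep the gene, and further alleles of the WT mice were not stated. The question was whether loss of Smarcad1 altered accessibility at regulatory elements, here those of the stem cell genes.

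The crypt is a pit of the intestinal lining whose base holds dividing stem cells wedged between Paneth cells. Wnt ligands and R-spondins sustain these cells, and Lgr5, Ascl2 and other genes of their signature respond to Wnt through TCF factors and beta-catenin. Stem cells are a minority of a whole crypt isolate, which is made up largely of transit amplifying and differentiating cells. In such a mixture fewer open cells and less opening per cell cannot be told apart.

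Sequences of GRCm38 from under these peaks are given first because open chromatin is where factors read the DNA. The first 3 are the central 300 bases of the strongest peaks of Lgr5, Smoc2 and Prom1, all inside introns, on the plus strand: chr10:115505926-115506225 for Lgr5, chr17:14371951-14372250 for Smoc2 and chr5:43998226-43998525 for Prom1. Capitals mark letters that match a searched motif on either strand.
Lgr5 intron: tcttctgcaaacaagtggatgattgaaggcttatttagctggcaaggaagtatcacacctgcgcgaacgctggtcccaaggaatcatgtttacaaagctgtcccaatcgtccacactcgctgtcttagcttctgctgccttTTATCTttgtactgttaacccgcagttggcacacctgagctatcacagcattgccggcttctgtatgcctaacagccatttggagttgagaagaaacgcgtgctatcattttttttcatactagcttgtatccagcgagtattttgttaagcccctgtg
Smoc2 intron: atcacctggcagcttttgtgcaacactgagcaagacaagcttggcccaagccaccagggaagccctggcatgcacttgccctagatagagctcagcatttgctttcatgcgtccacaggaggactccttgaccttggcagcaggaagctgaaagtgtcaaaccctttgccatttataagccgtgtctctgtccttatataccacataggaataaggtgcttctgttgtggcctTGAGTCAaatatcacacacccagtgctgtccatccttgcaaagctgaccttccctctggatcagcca
Prom1 intron: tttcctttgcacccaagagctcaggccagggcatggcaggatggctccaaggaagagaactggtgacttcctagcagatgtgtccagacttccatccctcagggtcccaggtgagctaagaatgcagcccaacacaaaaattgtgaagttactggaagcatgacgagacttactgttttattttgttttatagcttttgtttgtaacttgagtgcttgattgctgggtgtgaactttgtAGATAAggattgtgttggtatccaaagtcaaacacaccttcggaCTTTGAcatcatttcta

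The next 4 are RefSeq promoter windows of GRCm38.p6, each read in the direction of the gene and each overlapped by a peak of that gene. They are chr14:80000052-80000351 (plus strand) for Olfm4, chr6:94700096-94700395 (minus strand) for Lrig1, chr14:61037938-61038237 (minus strand) for the second start of Tnfrsf19 and chr2:72475969-72476268 (plus strand) for Cdca7.
Olfm4 promoter: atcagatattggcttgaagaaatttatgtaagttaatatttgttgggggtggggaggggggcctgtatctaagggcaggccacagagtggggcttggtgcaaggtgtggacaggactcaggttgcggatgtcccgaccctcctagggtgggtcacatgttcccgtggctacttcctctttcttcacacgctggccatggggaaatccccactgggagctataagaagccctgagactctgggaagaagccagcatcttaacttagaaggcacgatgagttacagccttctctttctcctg
Lrig1 promoter: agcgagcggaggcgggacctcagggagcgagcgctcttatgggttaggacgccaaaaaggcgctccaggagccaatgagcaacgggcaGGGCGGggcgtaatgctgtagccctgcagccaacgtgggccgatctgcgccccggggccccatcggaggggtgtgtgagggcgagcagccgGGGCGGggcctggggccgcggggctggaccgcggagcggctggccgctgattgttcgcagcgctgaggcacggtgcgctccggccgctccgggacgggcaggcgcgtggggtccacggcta
Tnfrsf19 promoter: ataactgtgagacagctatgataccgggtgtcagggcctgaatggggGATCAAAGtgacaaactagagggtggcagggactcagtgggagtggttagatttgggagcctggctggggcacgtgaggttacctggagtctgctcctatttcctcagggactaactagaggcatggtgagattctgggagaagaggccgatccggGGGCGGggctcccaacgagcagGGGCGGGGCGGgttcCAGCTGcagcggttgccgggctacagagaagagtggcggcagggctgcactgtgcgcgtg
Cdca7 promoter: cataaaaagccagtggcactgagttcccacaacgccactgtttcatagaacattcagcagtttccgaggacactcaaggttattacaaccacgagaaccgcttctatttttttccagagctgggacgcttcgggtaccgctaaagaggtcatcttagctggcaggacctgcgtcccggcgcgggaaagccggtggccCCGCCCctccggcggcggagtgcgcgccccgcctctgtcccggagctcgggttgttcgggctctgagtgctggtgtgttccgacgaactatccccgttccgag

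The 8 motifs were searched on both strands. They were the TCF/LEF motif of the Wnt pathway (CTTTGA), its longer form (CTTTGATC, every match to which also matches the short form), the E-box bound by factors such as Ascl2 (CAGCTG), and the motifs of CDX (TTTATTG), HNF4 (CAAAGTCCA), the GATA family (AGATAA), KLF and SP factors (GGGCGG) and AP-1 (TGACTCA). In the central 300 bases of the 44 peaks, the short TCF/LEF motif occurred in 10 (22.7%, against 19.9% of all peaks), the E-box in 9 (20.5%, against 18% of all peaks) and the GATA motif in 9 (20.5%, against 16.5%). The KLF motif was found in 7 (15.9%, against 10.8% of all peaks and 16.9% of named peaks), the CDX motif in 3 (6.8%, against 5.5%), the AP-1 motif in 3 (6.8%, against 8.4%) and the HNF4 motif in 0 (against 1.3%). The long TCF/LEF motif was found in 2 windows (4.5%, against 1.4%), both in introns, of Lrig1 and of Tnfrsf19. The Tnfrsf19 window, in a weak peak 33.91 kb from the gene start, held 4 matches to the short form, 2 of them to the long one. In the sequences above, the Lgr5 intron shows the GATA motif in reverse, the Prom1 intron the GATA and TCF/LEF motifs, and the Smoc2 intron the AP-1 motif in reverse. The Lrig1 promoter shows the KLF motif at 2 places and the Cdca7 promoter at 1, a motif found in 35.7% of the 32851 RefSeq promoter windows. The Tnfrsf19 promoter holds the long TCF/LEF motif in reverse, which 0.9% of the promoter windows hold, and the Olfm4 promoter holds no match to any of the 8. The median GC content of the central windows was 50.5% at the stem cell genes and 48.7% over all peaks. These matches describe letters and not bound factors.

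The libraries held 4339306 to 16301164 reads in peaks. The deposited values are log2 reads scaled to the largest library, WT3, so that 1 read counted as 1 in WT3 and as up to 3.99 in the shallowest, KO3. A stem cell gene peak held 5 to 1155 reads in a library with a median of 64, and 6 of the 44 had under 10 reads in at least 1 library. The scaled total over all peaks was 69.7% and 67.9% of that of WT3 in WT2 and KO2 against 83.8% to 106.2% in the other 4, so both libraries numbered 2 stand apart. Smarcad1 itself had 4 peaks (KO minus WT -0.14 to -0.01 on the log2 scale, 0 called), of which 0 overlapped the deleted exons, so the peaks do not check the genotype. Whether the 3 mice of a group were separate litters was not stated, and p-values measure the spread between these libraries.

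Marker genes of the crypt lineages were checked for a peak within 1 kb of a gene start. Of the 10 stem cell genes 8 had one, at WT means of 6.84 to 9.82 (log2 scaled reads), of the 5 Paneth cell markers 2 (Lyz1 and Itln1), of the 5 goblet markers 5, of the 5 enteroendocrine markers 3 and of the 5 tuft markers 4. Fabp1 was the 1 enterocyte marker of 5 with such a peak, while Vil1, Alpi, Apoa1 and Lct had none. Of the immune markers described here, Ptprc had one, at 5.02, and Cd3e, Cd79a and Spi1 had none, whereas Col1a1, Col1a2 and Pdgfra of the 5 stroma and endothelium markers had one. A peak near a start was listed for 3 of 5 genes of other tissues as well, so its presence does not by itself mark the cell that uses a gene. These peaks were counted by position. The strongest one of Muc2, Clca1, Pax6 and Actn3 (of other tissues) carries another name in the authors' naming, and that of Olfm4 carries none.

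At the median, the peaks of the stem cell genes were wider and stronger than those of the table as a whole, and most lay inside the genes. Lrig1 had 10 peaks, Smoc2 9, Lgr5 and Tnfrsf19 6 each, Prom1 5, Cdca7 3, Olfm4 and Msi1 2 each and Aqp4 1, against a median of 2 and a mean of 3.44 over all gene names. Lrig1, Smoc2, Lgr5, Tnfrsf19 and Prom1 are 82.62 to 137.47 kb long. Cdca7, Olfm4, Msi1 and Aqp4 are 10.73 to 39.06 kb long, and the counts were not adjusted for gene length. By the GENCODE annotation 26 of the 44 lay within introns, 10 covered a transcript start of the gene, 4 lay over coding exons and 4 lay past the end of the gene. The share over a start, 22.7%, was close to the 23.6% of all named peaks that cover a start of any gene. Median width was 1125 bp, against 750 bp for all peaks and 900 bp for named peaks, and the widths ran from 300 to 3150 bp. The median WT value was 6.85 (log2 scaled reads per peak), against 5.79 for all and 6.23 for named peaks, and 36 of the 44 (81.8%) lay above the median of all peaks. Wider peaks collect more reads, with a Spearman rho between width and WT mean of 0.93 over the 44 and 0.95 over all peaks, whose values share libraries and widths. Divided by width, the median was 6.60 (log2 scaled reads per kb) at the stem cell genes, 6.43 over all peaks and 6.53 over named peaks, and 29 of 44 (65.9%) were above the median of all peaks, as were 59.6% of named peaks. The 125 peaks of other crypt base and Wnt genes, described below, were close to the 44. Their medians were 1050 bp, 6.61 in WT and 6.61 per kb, with 75.2% above the median WT value of all peaks.

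**Figure D1:**
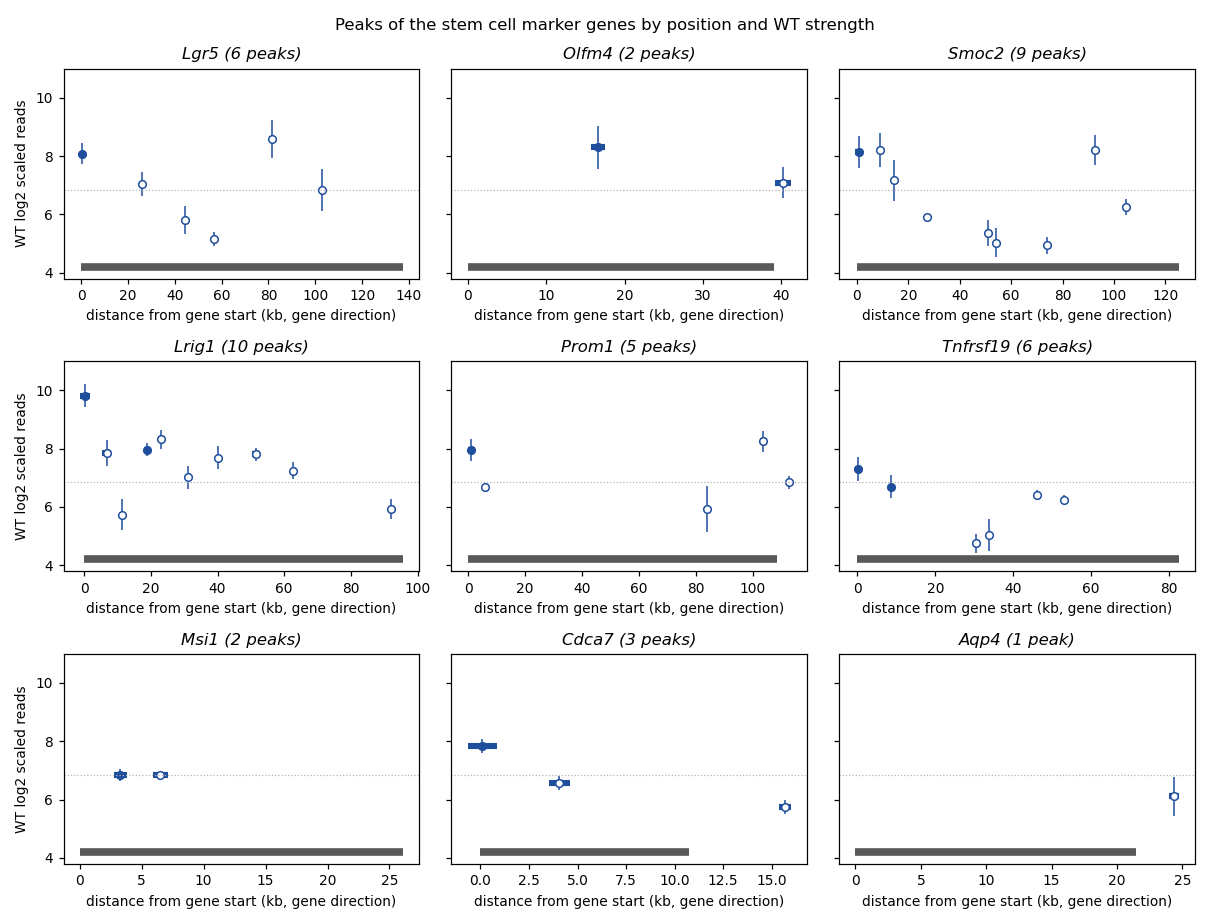
Position and strength of the 44 peaks, 1 panel per gene. The horizontal axis is the distance of the peak center from the gene start in kb in the direction of the gene, the vertical axis the WT mean in log2 scaled reads with the SD of 3 libraries, the gray bar the gene, horizontal blue bars the peak width, filled circles peaks over a transcript start and the dotted line the median of the 44 peaks (6.85). Lrig1 has the strongest start peak (9.81), while in Lgr5 and Prom1 the strongest peak lies over 80 kb inside the gene. In Smoc2 the peaks 9.12 and 92.59 kb from the start are level at 8.21.

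Lgr5, on chromosome 10 from 115450311 to 115587780 (minus strand), encodes a receptor for R-spondins and is the defining marker of the cycling stem cell. Its strongest peak was not at its start but in an intron 81.70 kb further in, at 115504801 to 115507350 (2550 bp), the peak whose center is printed above. That intronic peak measured 8.88, 7.85 and 9.03 log2 scaled reads in WT1, WT2 and WT3 and 8.94, 7.89 and 9.06 in KO1, KO2 and KO3. Both libraries numbered 2 were low, by about the same amount, and the genotypes overlapped, with a KO minus WT of 0.05 ± 0.41 (SE by limma, as for every such difference here). The adjusted p was 1 at this and each of the other peaks of the 10 genes.

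The start peak of Lgr5, at 115586101 to 115588350 (2250 bp), measured 8.24, 7.69 and 8.34 in the WT libraries and 8.03, 7.58 and 8.47 in the KO libraries. Its KO minus WT was -0.06 ± 0.33, and the groups again overlapped. A narrow intronic peak at 115484401 to 115485150 measured 7.02, 6.05 and 7.44 in WT and 7.60, 5.69 and 7.35 in KO. Here the libraries numbered 2 lay below the other 4 (-1.48 on the log2 scale), a difference that 0.50% of all peaks reached or passed. The 3 other intronic peaks, 26.20, 44.50 and 56.80 kb from the start, had WT means of 7.04, 5.80 and 5.15. At 44.50 kb the values were 6.14, 5.27 and 6.00 in WT and 5.88, 5.56 and 6.75 in KO (KO minus WT 0.26 ± 0.33), and at 56.80 kb 5.06, 4.97 and 5.43 in WT and 4.83, 5.33 and 4.80 in KO (-0.17 ± 0.30). Averaged over its peaks, Lgr5 stood at 6.92 ± 0.46 in WT against 6.93 ± 0.49 in KO (± SD over 3 libraries), a difference of 0.01 with a 95% interval of -0.65 to 0.68.

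Lrig1 (chromosome 6, 94604529 to 94700158, minus strand), a transmembrane inhibitor of EGF receptor family signalling, had the strongest peak of the 10 genes. This peak covers the gene start at 94698301 to 94701450 (3150 bp, a width that 0.87% of all peaks reach) and the promoter printed above, and ranked at the 99.4th percentile of all peaks. It measured 9.88, 9.39 and 10.17 in WT and 9.95, 9.35 and 10.52 in KO, again lowest in both libraries numbered 2. The KO minus WT was 0.12 ± 0.40, within the spread of either group. A second transcript start within the gene, 18.81 kb further in, lay under a peak of 7.97 ± 0.22 in WT and 8.0 ± 0.66 in KO.

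The remaining 8 Lrig1 peaks had WT means of 5.73 to 8.32, and of all 10 peaks of the gene 5 had a higher and 5 a lower mean in KO. The lowest KO minus WT of all 44 peaks, -0.57 ± 0.38, came from a 600 bp peak over a coding exon 91.86 kb from the start. Its values were 6.10, 5.52 and 6.17 in WT and 5.93, 5.84 and 4.32 in KO. KO3 alone was low, with 5 reads, and leaving it out brought the difference to -0.0450, while it was -0.85 without KO1. Intronic peaks 31.18 and 40.11 kb from the start differed by -0.18 ± 0.29 and -0.15 ± 0.32. Over its 10 peaks Lrig1 averaged 7.54 ± 0.35 in WT and 7.51 ± 0.32 in KO.

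Tnfrsf19 (Troy), on chromosome 14 from 60963875 to 61046490 (minus strand), is a receptor of the TNF receptor superfamily and a Wnt target in stem cells. It had peaks over 2 of its annotated starts, while a further annotated start inside the gene lay under no peak. The upstream start peak measured 7.35, 6.86 and 7.68 in WT and 7.35, 6.56 and 7.90 in KO, so that the genotypes overlapped and KO reached further at both ends, with the library numbered 2 lowest in each. The second start peak, 8.56 kb further in, measured 6.73, 6.31 and 7.07 in WT and 7.25, 6.38 and 7.04 in KO, a difference of 0.19 ± 0.31. The 4 intronic peaks were weaker, with WT means of 4.76 to 6.41 and differences of -0.12 to 0.10. Averaged over its 6 peaks, the gene stood at 6.08 ± 0.22 in WT against 6.11 ± 0.21 in KO.

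Prom1 (CD133; chromosome 5, 43993620 to 44102032, minus strand), a pentaspan membrane glycoprotein, was the gene whose peaks were most uniformly higher in value in KO, although none passed the test. All 5 differed by 0.13 to 0.35, and the gene mean was 7.13 ± 0.36 in WT and 7.37 ± 0.41 in KO (0.24, 95% interval -0.37 to 0.84). The strongest peak, intronic and 103.66 kb from the start, measured 8.19, 7.92 and 8.62 in WT and 8.46, 8.13 and 8.90 in KO. The start peak measured 8.02, 7.54 and 8.29 in WT and 8.15, 7.85 and 8.46 in KO. In both peaks the ranges overlapped, and the differences of 0.25 and 0.20 were smaller than the SD within WT. The largest difference, 0.35 ± 0.31, was at a peak past the 3' end of the gene (3725 bp by the authors' distance), where KO3 was the highest library at 7.75 and the other 5 measured 6.67 to 7.17. Without KO3 this difference was 0.0693 and that of the gene mean 0.0456, and without KO2 they were 0.61 and 0.455.

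Olfm4 (chromosome 14, 79984081 to 80023139, plus strand), a secreted glycoprotein abundant in stem cells of the small intestine, had 2 peaks of its name. The stronger, at 79999801 to 80001600 over the RefSeq start printed above and 16.62 kb inside the GENCODE gene, measured 8.36, 7.52 and 9.02 in WT and 8.28, 7.91 and 8.88 in KO. The spread within WT, an SD of 0.75, was wider than any difference between the genotypes, which was 0.06 ± 0.39. The other peak, past the end of the gene, measured 7.09 ± 0.53 in WT and 7.15 ± 0.14 in KO. A further peak at 79984201 to 79987350, just inside the GENCODE gene start, carries no name in the table and is therefore not counted among the 44. It measured 8.55, 7.82 and 8.94 in WT and 8.45, 7.61 and 9.04 in KO, and so matched the named peak in strength and in its low value in the libraries numbered 2.

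Smoc2 (chromosome 17, 14279506 to 14404790, plus strand), a secreted calcium-binding matricellular protein, had strong peaks near its start and 92.59 kb in, with weak ones between them. Of its peaks, the one nearest the 3' end, 104.82 kb from the start, had a WT mean of 6.25. The start peak had a WT mean of 8.13 ± 0.55, an intronic peak 9.12 kb further in 8.21 ± 0.58 and the strongest, 92.59 kb in, 8.21 ± 0.51. That strongest peak measured 8.39, 7.63 and 8.61 in WT and 8.25, 7.54 and 8.55 in KO, and the start peak 8.39, 7.49 and 8.51 in WT and 8.22, 7.78 and 8.55 in KO. Neither differed between genotypes beyond the spread (-0.10 ± 0.36 and 0.05 ± 0.35). The 4 peaks from 27.19 to 73.92 kb had WT means of 4.94 to 5.90.

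Of the 9 Smoc2 peaks 7 had a higher mean in KO, and the gene mean was 6.58 ± 0.15 in WT and 6.75 ± 0.06 in KO (0.17, 95% interval -0.23 to 0.57). Smoc2 held the highest KO minus WT of the 44 peaks, 0.52 ± 0.36, at a weak 450 bp peak 73.92 kb from the start. There the values were 4.78, 5.27 and 4.76 in WT and 5.88, 5.91 and 4.58 in KO. KO1 and KO2 exceeded every WT library and KO3, with 6 reads, lay below them, and the difference was 0.96 without KO3 and 0.29 without KO2. A peak 104.82 kb from the start measured 6.02, 6.16 and 6.57 in WT and 6.48, 6.47 and 6.90 in KO (0.37 ± 0.27), and a peak 14.37 kb from the start differed by 0.32 ± 0.40.

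Msi1 (chromosome 5, 115429599 to 115455698, plus strand), an RNA-binding regulator of translation in progenitor cells, had 2 peaks of nearly equal strength, 3.28 and 6.50 kb from the gene start. The first, over an alternative transcript start, measured 6.67, 6.79 and 7.06 in WT and 7.10, 6.40 and 6.85 in KO. The second measured 6.75, 6.90 and 6.87 in WT and 7.03, 6.43 and 7.13 in KO. The WT values lay close together (SD 0.20 and 0.08), KO2 was the lowest library at both, and the differences were -0.05 ± 0.28 and 0.02 ± 0.28.

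Cdca7 (chromosome 2, 72476159 to 72486893, plus strand), a Myc and E2F target with a zinc finger domain that acts with the remodeler Hells, had its strongest peak over the promoter printed above. This peak measured 7.75, 7.65 and 8.10 in WT and 8.11, 7.68 and 8.23 in KO, a difference of 0.17 ± 0.30 with overlapping groups. A peak over a coding exon 4.07 kb from the start measured 6.40, 6.43 and 6.83 in WT and 6.33, 6.13 and 6.64 in KO (-0.19 ± 0.27). The remaining peak, past the end of the gene, measured 5.74 ± 0.24 in WT and 5.70 ± 0.18 in KO.

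Aqp4, a water channel, lies on chromosome 18 from 15389496 to 15410982 (minus strand) and had 1 peak of its name, of 750 bp, past the 3' end of the gene (2394 bp by the authors' distance). It measured 6.06, 5.46 and 6.79 in WT and 5.52, 5.77 and 6.75 in KO, a difference of -0.09 ± 0.37 with both SDs above 0.65. No peak overlapped the gene body, and the nearest peak without the name lay 1.52 kb upstream of the gene start at 6.25 ± 0.14 in WT and 6.15 ± 0.15 in KO.

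Ascl2, the basic helix-loop-helix factor that maintains stem cell identity, lies on chromosome 7 from 142966829 to 142969264. The nearest peak of any name in the table was 30.48 kb away. The table lists called peaks only, so the level of accessibility at Ascl2 was not analysed here.

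Per kb of peak, the strongest peaks of the 9 genes ranked from Lrig1 (8.16 log2 scaled reads per kb in WT) through Olfm4 (7.45), Cdca7 (7.25), Lgr5 (7.24), Tnfrsf19 (7.22), Smoc2 (7.14) and Prom1 (7.08) to Msi1 (6.58) and Aqp4 (6.52). From Olfm4 to Prom1 each neighbour in this order differed by less than the WT SD of either peak, as did Msi1 and Aqp4. The step from Lrig1 to Olfm4 was larger than the SD of Lrig1 but not that of Olfm4, and the step from Prom1 to Msi1 was larger than the SD of both. The 10 peaks over a start had a median of 7.02 per kb and the 34 others of 6.49.

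**Figure D2:**
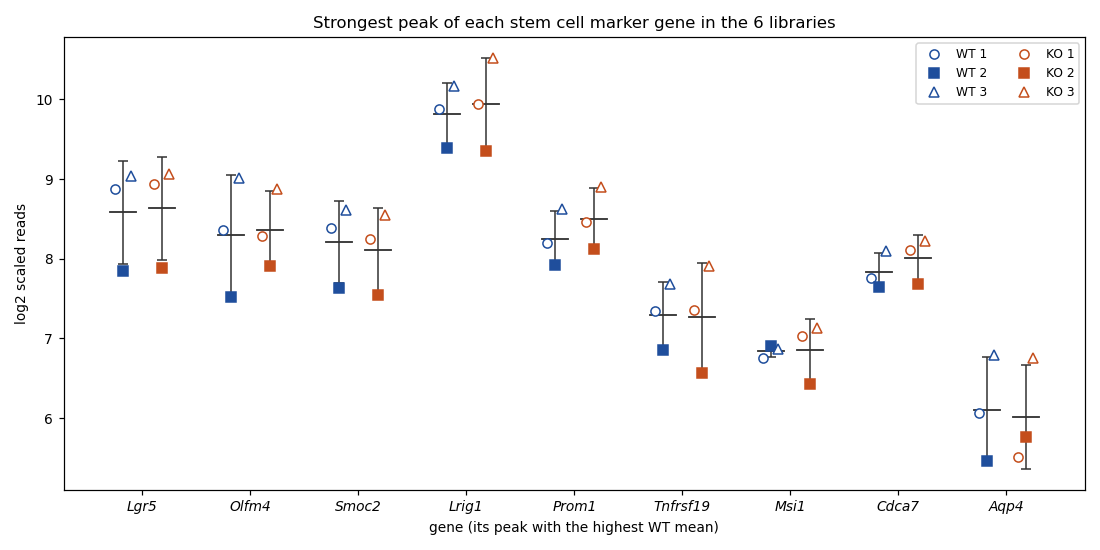
Log2 scaled reads (vertical axis) of the strongest peak of each of the 9 genes (horizontal axis) in the 6 libraries, WT in blue and KO in orange, with the mean and SD of 3 libraries in black and the libraries numbered 2 as filled squares. WT and KO overlap at all 9 peaks, and WT2 and KO2 are the lowest of their genotype at 7 of them, the exceptions being WT2 at Msi1 and KO2 at Aqp4.

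No difference between Smarcad1-KO and WT was detected at the stem cell gene peaks at this depth and number of mice. By limma, 0 of the 44 peaks were called at an adjusted p below 0.05, where 0 of all 123510 peaks (0%) were called, and 0 of the 44 had an unadjusted p below 0.05, against 2.28% of all peaks. The study's own test, on counts, did report sites with changed accessibility, so the 0 over all peaks belongs to this fit. In 0 of the 44 did all KO values lie above all WT values (2.7% of all peaks) and in 0 did all lie below (4.1%). The KO mean was the higher in 28 peaks and the lower in 16, the differences ran from -0.57 to 0.52 and their median was 0.05 (log2), against -0.02 over all peaks and 0.01 over named peaks. Leaving out WT2 brought the median to -0.08 and leaving out KO3 to -0.06, while it was 0.21 without WT3 and 0.27 without KO2, so that single libraries decide its sign and size. The median 95% interval reached 0.71 to either side of the difference, so that at a typical peak a change of up to about this size lay within the interval. Over gene means, 0 of the 9 genes were called (0% of 18004 gene names) and 0 had an unadjusted p below 0.05 (1.3% of gene names).

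**Figure D3:**
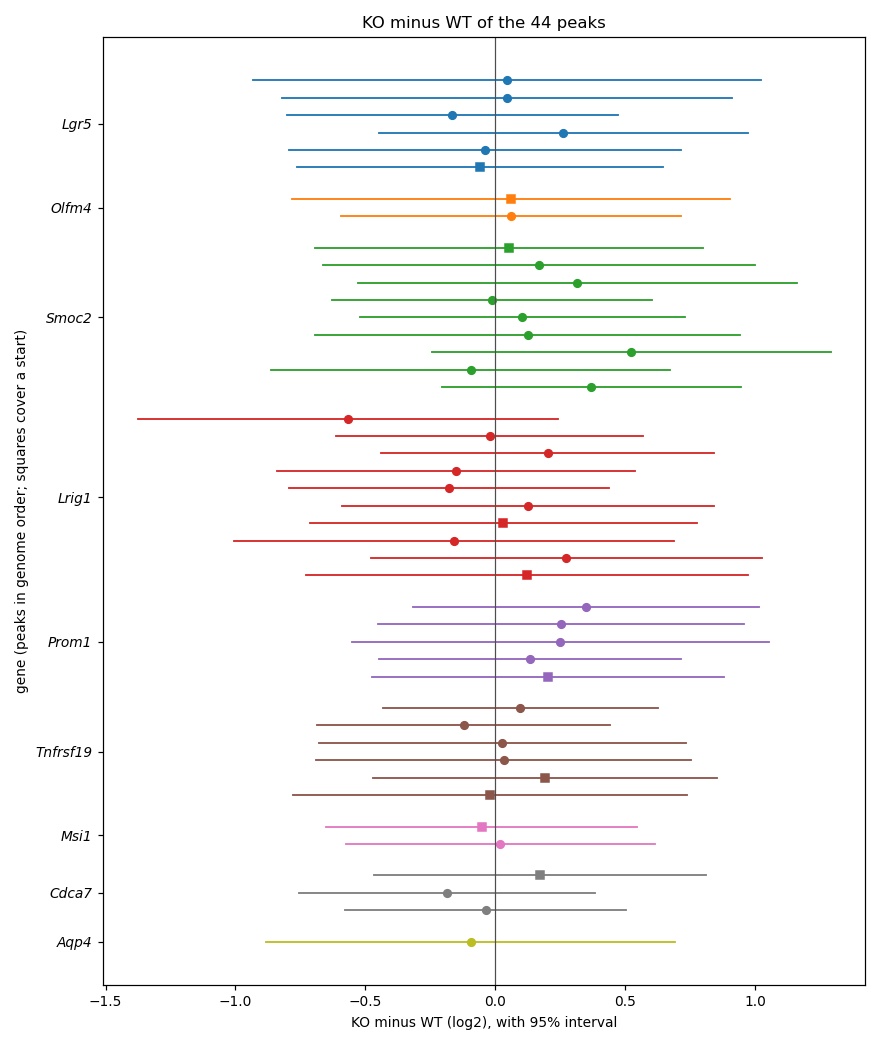
KO minus WT on the log2 scale (horizontal axis) of the 44 peaks with the 95% interval of the limma fit, grouped by gene (vertical axis) in genome order, squares for peaks over a transcript start. All 44 intervals include 0, and the 5 Prom1 peaks all lie to the right of it, from 0.13 to 0.35.

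The other genes of the crypt base and of the Wnt pathway were read as a list of 24, of which 22 had peaks, 125 in all. Of these 125 peaks 0 were called by limma, as over all peaks. An unadjusted p below 0.05 by limma was found at 3 of the 125, all higher in KO, a share close to the 2.28% of all peaks. Their median KO minus WT was 0.10, against 0.01 over named peaks. The KO mean was higher in 87 (69.6%, against 46.9% of all peaks and 51.3% of named peaks) and lower in 38. These peaks share 6 libraries, and this count was not repeated with a library left out. With a library left out, the number higher among the 44 stem cell gene peaks ranged from 15 to 35. The KO values lay wholly above the WT values in 5 of the 125 (2.7% of all peaks) and wholly below in 1 (4.1% of all peaks). The strongest peaks were those of Rgmb, a BMP co-receptor (10.19 ± 0.41 in WT, 10.22 ± 0.78 in KO), Lgr4, the R-spondin receptor related to Lgr5 (9.79 ± 0.53 and 9.84 ± 0.72), and Soat1, a cholesterol esterifying enzyme (9.65 ± 0.39 and 9.69 ± 0.67).

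The 3 peaks with the smallest unadjusted p lay in introns of Ephb2, a receptor that positions cells along the crypt, and Znrf3, a ligase that removes Wnt receptors from the surface. At the first Ephb2 peak, 136815301 to 136816050 on chromosome 4, values were 6.10, 6.27 and 6.77 in WT and 7.10, 6.73 and 7.28 in KO (0.66 ± 0.28, adjusted p = 1 by limma, as at the other 2). The second, at 136732801, measured 6.37, 6.05 and 6.83 in WT and 6.98, 7.16 and 6.90 in KO (0.60 ± 0.28). The Znrf3 peak was weak, with a WT mean of 4.80 and 10 to 33 reads per library. It measured 4.30, 5.05 and 5.04 in WT and 5.77, 5.28 and 5.46 in KO (0.70 ± 0.31, and 0.45 without WT1). KO and WT did not overlap at the second Ephb2 peak or at the Znrf3 peak, while KO2 lay below WT3 at the first. All 12 Ephb2 peaks had a higher mean in KO, and the gene mean differed by 0.26, with an adjusted p of 1 by limma. Of the 11 Znrf3 peaks 7 had a higher and 4 a lower mean in KO, and the gene mean differed by 0.07. The lowest KO minus WT of the 125 peaks, -0.74 ± 0.42, was at another intronic peak of Znrf3.

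The larger split among the libraries at these genes was not by genotype but by number. At the 44 peaks the libraries numbered 2 lay below the other 4, with a median difference of -0.53 on the log2 scale, against -0.27 over all peaks and -0.49 over peaks that cover a start. This comparison was made after the values were seen and is a description. Both libraries numbered 2 were below the other 4 in 25 of the 44 (56.8%, against 32.2% of all peaks and 62.9% of peaks over a start) and above them in 3 (6.8%, against 3.8% of all peaks). Strong peaks were affected most. Of the 8 stem cell gene peaks with a WT mean between 8 and 9, all 8 were lower in both libraries, as were 71.3% of all peaks of that strength. The median difference was -0.82 over the 8 and -0.58 over all peaks of that strength. Across peaks, Pearson's r between this difference and the WT mean was -0.60 over the 44 and -0.35 over all peaks, values that share the WT libraries.

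By gene, the difference was largest in Lgr5 (-0.78, which is 42.0% lower), followed by Olfm4 (-0.68), Aqp4 (-0.66), Prom1 (-0.56) and Lrig1 (-0.52). It was smaller in Tnfrsf19 (-0.31), Msi1 (-0.30), Cdca7 (-0.19) and Smoc2 (-0.18). The low mean of Smoc2 hid a split within the gene, with its strong peaks lower in these libraries (-0.78 to -1.01 at those over 8) and its 4 weak peaks between 27.19 and 73.92 kb higher by 0.51 to 0.68, above the 96th percentile of all peaks. These weak peaks held 5 to 63 reads per library. The 44 peaks held 0.0490% and 0.0516% of the reads in peaks of WT2 and KO2 and 0.0537% to 0.0591% of those of the other 4, a share that the scaling does not touch. With each library scaled to its total over peaks the median difference was -0.09 at the 44 and 0.17 over all peaks. The values by gene above, with the percentage for Lgr5, are without that scaling. The part of depth or cell makeup in this difference was not tested.

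**Figure D4:**
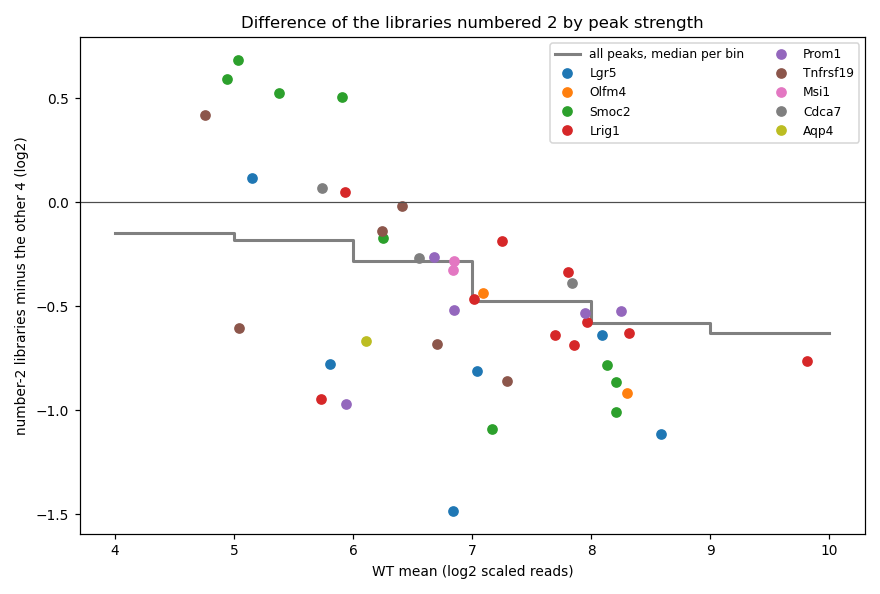
Mean of the libraries numbered 2 minus the mean of the other 4 (vertical axis, log2) against the WT mean in log2 scaled reads (horizontal axis) for the 44 peaks, colored by gene, with the median of all peaks in each bin of 1 log2 unit as a gray line. The Lgr5 peaks at 6.84 and 8.59 lie lowest of the 44 (-1.48 and -1.11), and 4 weak Smoc2 peaks lie above 0.5.

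Lgr5 was compared with other gene names by the mean of their peaks over the 6 libraries, each library centered on its mean over gene names. Among 6365 gene names with at least 3 peaks, the most alike were 4921530L18Rik (Pearson's r = 0.998 over 6 libraries), App (0.994) and Pde7a (0.994), which are low in the same libraries (-1.32, -0.76 and -0.77 in the libraries numbered 2). Of the stem cell genes with at least 3 peaks Lrig1 came closest (0.90, rank 368), followed by Prom1 (0.65), while Tnfrsf19 (-0.15), Cdca7 (-0.58) and Smoc2 (-0.58) did not follow it. Olfm4, Msi1 and Aqp4 had fewer peaks and were not compared. The points share the 6 libraries and their depth, and the names most alike were picked as the highest of 6365 values.

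Peaks within 20 kb of the 10 genes that carry another name or none numbered 20, of which 15 had no name and 0 were called. Among them was the second strongest site near any of the genes, 17.94 kb upstream of Lrig1, at 9.22 ± 0.53 in WT and 9.41 ± 0.48 in KO. The smallest unadjusted p among them, chosen after the values were seen, was at a 750 bp peak 13.71 kb upstream of Tnfrsf19, with 6.44 ± 0.28 in WT and 5.79 ± 0.20 in KO (-0.65, adjusted p = 1 by limma), where the 3 KO libraries were all lower than the 3 WT libraries (as in 4.1% of all peaks).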

How the data were processed

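ATAC-seq libraries of crypt nuclei from 3 WT and 3 Smarcad1-KO mice were analysed, grouped by their titles. The authors trimmed reads with Trim Galore (version 0.4.1), mapped them to GRCm38 with Bowtie2 (version 2.2.5), removed duplicates and called MACS peaks in SeqMonk; which libraries were pooled for calling is not given in the sources used here. The values the authors deposited are log2 reads per peak, scaled to the largest library, with the name of a gene within 5 kb. The linear values came out as whole reads (within 0.1 read) for 100% of the values of each library, and read numbers are these. Intervals cover the spread between libraries, and reads carried no molecular identifiers, so they need not be separate molecules. A deposited table of peaks past the authors' own test, with their adjusted p-values, was not used.

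A linear model per peak was fitted with the R package limma (3.58.1 under R 4.3.3) using a trended eBayes step on all 123510 peaks and 6 libraries, two-sided, without filter, scaling or pseudocount, and with Benjamini-Hochberg adjustment over all peaks (called below 0.05). All 44 peaks were therefore fitted. The study's methods use a count test. Because the deposited values are log2, a linear model on that scale was chosen as the main test, with voom on the recovered reads as an alternative. The gene fit used the mean over the peaks of each of 18004 names. Because WT and KO share only the numbers 1 to 3, the number entered as a block in an alternative alone. The fits were tested on simulated data with larger changes than any difference at the 44 peaks and with noise independent between libraries. That test does not show how the fits perform at differences of the size seen here. Positions are from GENCODE vM21, sequences from RefSeq and its GRCm38.p6 genome; of the 10 genes 6 matched the promoter table.

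The members and lists were chosen with earlier results of these data known. Described were all 10 genes, for each the peak nearest a start and the strongest in WT, the 5 peaks with the smallest p in each direction, and of the wider list the 3 genes with the strongest peaks and the 3 peaks with the smallest p.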

Additional observations from a re-analysis of the deposited data

How the results depend on the processing

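No stem cell gene peak, stem cell gene or peak of the wider crypt and Wnt list was called under any alternative run (median centering, quantile normalization, scaling to the total over peaks, a pseudocount of 5, voom on recovered reads, the replicate block, each library left out, an adjusted p below 0.1, and for genes summed values or the strongest peak). A minimum mean of 20 removed 0 peaks. Over all peaks, 0 were called, against 272 with the replicate block, 30 without KO2 and at most 3 under the others. With the block the median of the 44 stayed at 0.05, 0 of the 44 were called and 2 had an unadjusted p below 0.05. Deviations of same-numbered libraries correlated at 0.04, 0.42 and 0.41 for numbers 1, 2 and 3. WT2, WT3, KO1, KO2 and KO3 correlated best with their own number and WT1 with KO3 (0.04), a hint from the data and not the design. The median KO minus WT of the 44 was 0.04 to 0.06 under the scalings and the other assignments of peaks to genes, and -0.08 to 0.27 with a library left out. The WT median of 6.85 was 6.76 to 7.08 with a WT library left out and 6.60 per kb. The 44 peaks became 41 by overlap with the gene body and 64 within 20 kb.

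None of the 37 single genes and peaks followed passed the threshold in any alternative, and 68 of their 499 alternative values changed sign, 52 of them with a library left out. With quantile normalization the sign changed for Lgr5 (-0.0007) and the peaks at 94680451 of Lrig1 (-0.0072) and 115435501 of Msi1 (-0.0176). With voom it changed for Lgr5 (-0.0194), Olfm4 (-0.0117), Lrig1 (0.0495), Msi1 (0.0147), Cdca7 (0.0634) and the strongest peaks of Lgr5 (-0.0028) and Olfm4 (-0.0122). With summed values it changed for Lrig1 (0.0838) and Cdca7 (0.0568), and with the strongest peak for Lrig1 (0.1219), Tnfrsf19 (-0.0210), Msi1 (0.0192) and Cdca7 (0.1710). With a library left out the gene values ranged from -0.24 to 0.28 (Lgr5), -0.24 to 0.39 (Olfm4), -0.21 to 0.14 (Lrig1), -0.0659 to 0.15 (Tnfrsf19), -0.14 to 0.19 (Msi1), -0.10 to 0.11 (Cdca7) and -0.46 to 0.25 (Aqp4, also for its peak). The start peaks ranged from -0.28 to 0.16 (Lgr5), -0.33 to 0.42 (Olfm4), -0.27 to 0.26 (Smoc2), -0.17 to 0.42 (Lrig1), -0.0026 to 0.37 (Prom1), -0.34 to 0.33 and -0.0062 to 0.45 (Tnfrsf19) and -0.21 to 0.14 (Msi1). Further peaks ranged from -0.33 to 0.42 (Lgr5, 81.70 kb), -0.0831 to 0.51 (Lgr5, 44.50 kb), -0.0644 to 0.66 (Smoc2, 14.37 kb), -0.38 to 0.19 (Smoc2, 92.59 kb), -0.38 to 0.0523, -0.38 to 0.0150 and -0.31 to 0.34 (Lrig1, 40.11, 31.18 and 18.81 kb) and -0.11 to 0.24 (Msi1, 6.50 kb). The extremes came mostly without WT2, WT3, KO2 or KO3, and the cause was not tested.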
